A study of Mus musculus with 8 samples.

Results

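The genes described here are 5 cadherins and 5 transcription factors of the epithelial-to-mesenchymal transition (EMT), 10 of 32780 genes measured, namely Cdh1, Cdh2, Cdh3, Cdh5, Cdh11, Snai1, Snai2, Twist1, Zeb1 and Zeb2. They were chosen by name, and their levels are sums over all transcripts that GENCODE M21 assigns to each gene. Total RNA was sequenced from TC1, a wild-type mouse embryonic stem cell (mESC) line, in 4 libraries of cells differentiated for 10 days and 4 libraries of mESC at day 0, the control. Both were dissociated to single cells before extraction, and the libraries were made with a kit that removes ribosomal RNA. The labels name neither the kind of differentiated cell nor the source of each replicate, so the p-values here reflect only how these libraries varied, which may be technical. They give no date or batch either, and any batch in step with the day of sampling cannot be told apart from differentiation.

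Cadherins are calcium-dependent adhesion receptors that bind a like cadherin on the neighbouring cell and are tied to actin inside the cell through catenins. In EMT, an epithelial cell gives up the E-cadherin of its junctions and takes up N-cadherin and other mesenchymal cadherins, a replacement called the cadherin switch. Repressors of the SNAIL and ZEB families bind E-box sequences in the Cdh1 gene and silence it, and TWIST1 acts beside them. In the embryo the same genes act at gastrulation, when epiblast cells become mesoderm, and again in the heart, where endocardial and epicardial cells become mesenchyme.

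Estimated counts totalled 13525255 to 17843651 in day 10 libraries and 11242568 to 15808039 in day 0 libraries, so the depths overlapped. The defining genes of mESC were present at day 0 and lower at day 10, where 9 pluripotency markers summed to 165 to 220 CPM (counts scaled to library size), against 3432 to 3807 CPM at day 0. All 9 were called lower in the test used below, 8 of them by over 2-fold. Over all genes tested 39.4% were called lower, and 17.3% by over 2-fold. With limma-trend on log2(TPM + 1), however, 8 were called lower and 1 higher. At day 10 the libraries held markers of several cell types. Summed CPM of 8 fibroblast and mesenchyme markers was 5326 to 9166 at day 10 and 119.3 to 135.2 at day 0, with only Dpt too low to be tested. For 9 cardiomyocyte markers it was 865 to 1446 at day 10 and 70.1 to 91.6 at day 0. For 7 endothelial markers it was 374 to 460 at day 10 and 38.7 to 42.9 at day 0, and for 6 epicardial markers 220 to 378 at day 10 and 10.6 to 12.4 at day 0. These are bulk samples, so fewer cells of a type and less RNA per cell cannot be told apart, and the part that this mixture of cells has in the results was not tested.

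Among the 5 cadherins, most transcripts of the day 0 stem cells were of E-cadherin, whereas 3 others stood above it at day 10. Of the 10 genes, 8 rose, 1 fell and 1 did not pass the test (edgeR's quasi-likelihood test, Benjamini-Hochberg adjusted p under 0.05). The 9 that passed also passed a test against a change of 2-fold. Among all 15097 genes tested, 82.1% changed, 42.7% upward and 39.4% downward, so a call on its own says little here. Changes over 2-fold were called for 41.4% of all genes, 24.1% upward and 17.3% downward. The median log2 change of the 10 genes was 3.93, against 0.06 over all genes tested, with 4.65 for the 5 cadherins and 3.25 for the 5 transcription factors.

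**Figure D1:**
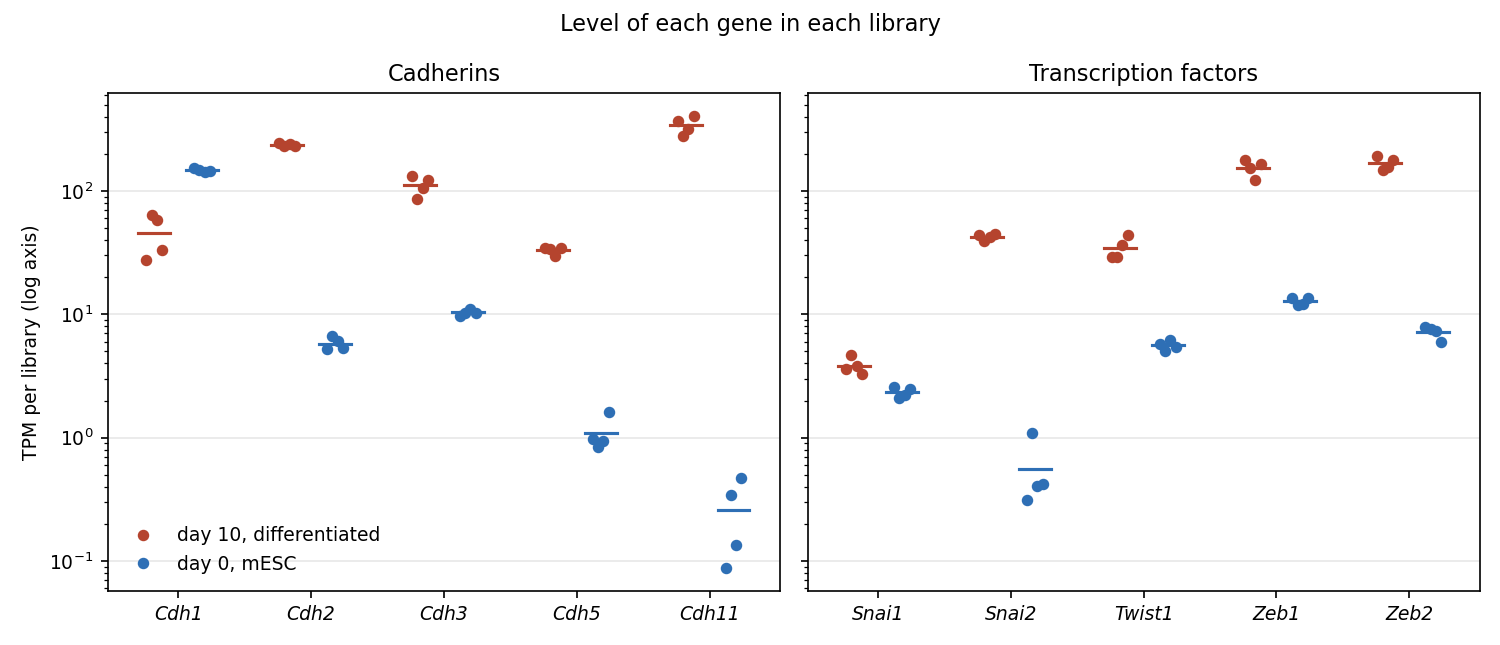
TPM of each gene in each library on a log axis, with day 10 (red) left of day 0 (blue) and a bar at the mean of 4 libraries. Cdh1 was lower at day 10, at 27.5 to 64.3 TPM against 143.6 to 154.8 TPM at day 0, and each of the other 9 genes was higher in all 4 day 10 libraries, by least for Snai1.

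Cdh1 encodes E-cadherin, the adhesion receptor of epithelia and of mESC colonies. It had 58.1, 129.0, 122.1 and 70.3 CPM in day 10 libraries 1 to 4, against 416, 397, 412 and 416 CPM in day 0 libraries 1 to 4. The day 10 libraries were spread widely, whereas those of day 0 lay close together, and the groups did not overlap. Cdh1 fell by 2.11 ± 0.27 on the log2 scale (SE, adjusted p = 1.43e-04 by edgeR's quasi-likelihood test). Its transcripts were still present at day 10, at 45.8 ± 18.1 TPM, against 148 ± 4.81 TPM at day 0 (SD, n = 4 each).

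Epcam and Grhl2 varied among the day 10 libraries alongside Cdh1, but not every epithelial gene did, and how many did was not counted. Epcam, an epithelial adhesion molecule, had 22.8, 38.0, 36.9 and 26.6 CPM at day 10, against 131 to 156 CPM at day 0. Grhl2, a transcription factor that sustains Cdh1 expression in epithelia, had 6.62, 11.9, 10.9 and 7.12 CPM at day 10, against 24.6 to 34.8 CPM at day 0. For both genes day 10 libraries 2 and 3 had the higher values, as for Cdh1. Dsc2, a desmosomal cadherin, had 280, 182, 202 and 221 CPM at day 10, with library 1 highest. Visceral endoderm is an extraembryonic epithelium that makes E-cadherin. Summed CPM of the 6 visceral endoderm markers was 374, 1224, 741 and 686 at day 10 and 476 to 517 at day 0. Summed CPM of the 6 simple epithelium markers was 257, 305, 371 and 244 at day 10 and 163 to 208 at day 0. Of these 6, Grhl2 among them, 3 rose, 2 fell and 1 did not pass, where 42.7% of all genes tested rose and 39.4% fell. Of the endoderm markers Afp, Ttr and Apoa1 rose and Rhox5 fell, while Amn and Cubn did not pass, and none was at 0 in a day 10 library. Without day 10 library 2, the highest in these markers, 3 were called lower rather than 1. Their part in the level of Cdh1 at day 10 was not tested.

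Cdh2 encodes N-cadherin, the cadherin of neural tissue, mesenchyme and the intercalated discs of heart muscle. It had 461, 420, 457 and 441 CPM in day 10 libraries, against 12.2, 15.7, 15.6 and 13.6 CPM in day 0 libraries. The day 10 values were the most even of the 10 genes, with a coefficient of variation of 4.18%. Cdh2 rose by 4.96 ± 0.09 (adjusted p = 1.62e-14 by edgeR).

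The ratio of Cdh2 to Cdh1, taken within each library from TPM, does not depend on library scaling. It was 8.84, 3.60, 4.15 and 6.96 in day 10 libraries, against 0.0335, 0.0451, 0.0421 and 0.0363 in day 0 libraries. Thus N-cadherin transcripts outnumbered E-cadherin transcripts in 4 of 4 day 10 libraries and were the scarcer kind in 4 of 4 day 0 libraries. The mean log2 ratio was 7.14 higher at day 10 (exact two-sided permutation test over 70 assignments, p = 0.0286, the smallest that 4 against 4 libraries allow, and 0.0286 adjusted over 3 ratios).

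Cdh3 encodes P-cadherin, found in placenta and in basal epithelia, and it stands directly beside Cdh1 on chromosome 8, with no protein-coding gene between them in RefSeq. It had 275, 173, 221 and 256 CPM in day 10 libraries, against 26.3, 27.7, 31.7 and 29.4 CPM in day 0 libraries. All day 10 libraries were above all day 0 libraries, with library 2 lowest. Cdh3 rose by 3.01 ± 0.14 (adjusted p = 3.36e-09 by edgeR), so these neighbouring genes moved in opposite directions.

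Cdh5 encodes VE-cadherin, the cadherin of endothelial junctions. It had 62.7, 61.7, 53.9 and 64.2 CPM in day 10 libraries, against 2.40, 2.02, 2.44 and 2.75 CPM in day 0 libraries. Cdh5 rose by 4.65 ± 0.12 (adjusted p = 3.69e-13 by edgeR), with library 3 the lowest of day 10. In a list of 22 genes of endothelial junctions, receptors and regulators, 20 rose, 0 fell and 2 did not pass, with a median log2 change of 3.08. Over all genes tested 82.1% were called, 42.7% upward and 39.4% downward, so the list differed mainly in direction. Kdr, the main VEGF receptor of endothelium, had 208 ± 29.4 CPM at day 10 and 3.82 ± 0.74 CPM at day 0 (log2 5.76). Tek, the angiopoietin receptor, had 119.3 ± 13.5 CPM at day 10 and 8.27 ± 0.36 CPM at day 0 (log2 3.85). Ets1, an ETS factor of endothelium and mesenchyme, had 186 ± 23.1 CPM at day 10 and 17.9 ± 1.68 CPM at day 0 (log2 3.38). Egfl7, a secreted endothelial protein, did not pass, at -0.16, but its value ran from -1.55 with coding transcripts only to 0.76 with the length trend removed, both past the test. Sox17, a factor of arterial endothelium and endoderm, did not pass either, at -0.28, and was called lower without day 10 library 2 or without day 0 library 1 (both -0.41), with a length offset (-0.62) and with the replicate number as a block (-0.29). Kdr and Tek are also among the endothelial markers summed above, and the part of endothelial cells in the level of Cdh5 was not tested.

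Cdh11 encodes OB-cadherin, the cadherin of mesenchyme, fibroblasts and bone. It had 743, 533, 647 and 690 CPM in day 10 libraries, against 0.276, 0.766, 0.505 and 0.524 CPM in day 0 libraries. The 4 day 0 libraries together held 28 counts, with a 95% exact Poisson interval of 18.6 to 40.5 that covers counting error only. Cdh11 rose by 10.23 ± 0.18 (adjusted p = 8.68e-14 by edgeR), more than any other of the 10 genes. On log2(TPM + 1) the change read 8.09, since the added 1 exceeds the day 0 level. Among 21860 protein-coding genes ranked by mean TPM, Cdh11 was at place 397 at day 10 and at place 13876 at day 0. It lies next to Cdh5 on chromosome 8, again with no protein-coding gene between them in RefSeq.

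**Figure D2:**
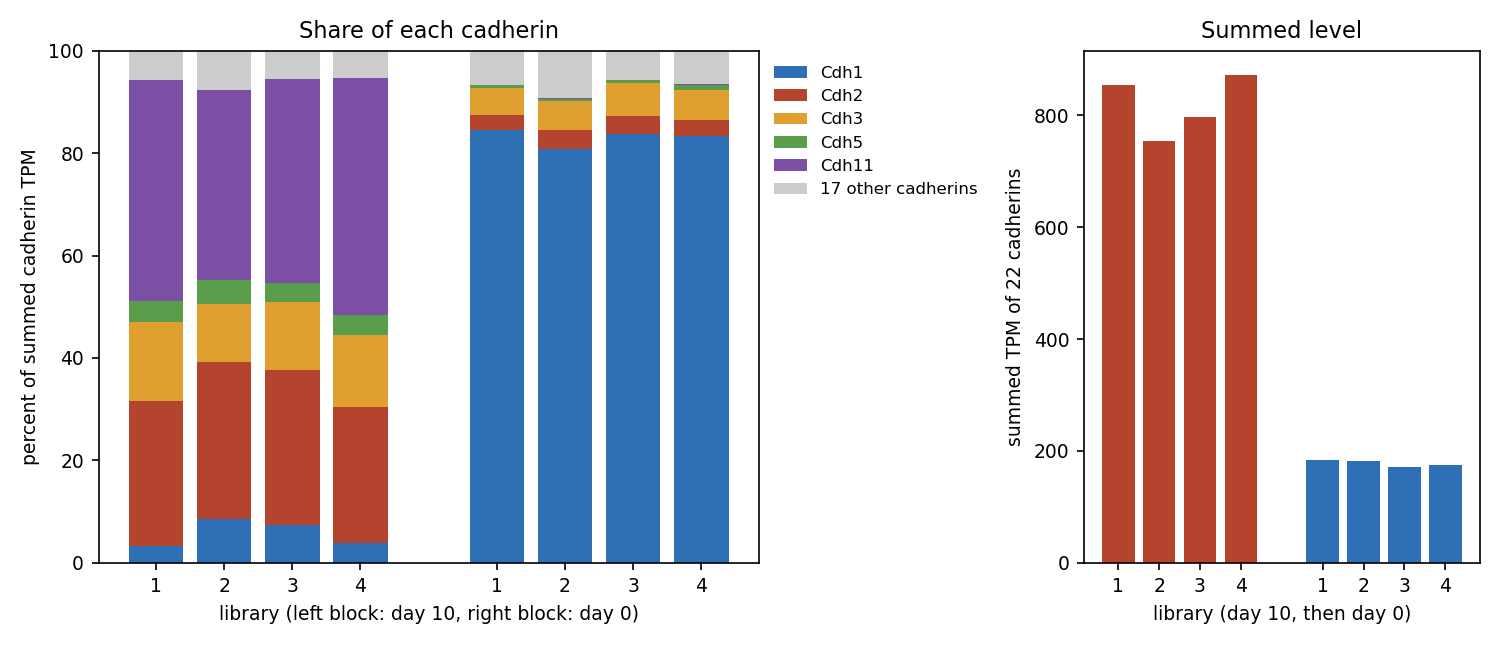
Left, each cadherin's percent of the TPM summed over 22 cadherins, per library, with day 10 in the left block and day 0 in the right. Right, that summed TPM in the same order. Cdh1 made up 3.22 to 8.51% at day 10, where Cdh11 and Cdh2 made up most of a larger sum, and 80.9 to 84.6% at day 0.

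Desmosomal cadherins such as Dsc2 were left out of the sums that follow. Over 22 classical and related cadherins, the summed level was 820 ± 53.5 TPM at day 10 and 178 ± 5.64 TPM at day 0 (SD, n = 4 each). The 5 genes described here held 94.0 ± 1.09% of it at day 10 and 93.0 ± 1.5% at day 0. Cdh1 held 5.71 ± 2.59% at day 10 and 83.2 ± 1.60% at day 0. Cdh11 held 41.7 ± 3.99% at day 10 and 0.15 ± 0.10% at day 0, and Cdh2 held 29.0 ± 1.89% at day 10 and 3.26 ± 0.39% at day 0. Cdh3 held 13.6 ± 1.62% at day 10 and 5.82 ± 0.46% at day 0, and Cdh5 held 4.06 ± 0.35% at day 10 and 0.61 ± 0.21% at day 0.

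The order of the cadherins by mean TPM at day 10 was Cdh11 (343 ± 54.6), Cdh2 (237 ± 6.32), Cdh3 (112 ± 19.6), Cdh1 (45.8 ± 18.1) and Cdh5 (33.2 ± 2.49). Of these neighbours, only Cdh1 and Cdh5 had overlapping libraries. These levels sum all transcripts, and retained-intron models add to that of Cdh11. Its coding transcript Cdh11-201 had 209 ± 26.3 TPM, against 170 ± 9.39 for Cdh2-202 and 54.9 ± 2.67 for Cdh2-201, both coding. By coding transcripts the mean of Cdh11 was thus not above that of Cdh2. At day 0 the order was Cdh1 (148 ± 4.81), Cdh3 (10.4 ± 0.53), Cdh2 (5.80 ± 0.69), Cdh5 (1.09 ± 0.35) and Cdh11 (0.259 ± 0.179), and no neighbours overlapped.

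The other 17 cadherins of the list together held the rest of the summed TPM. The most abundant was Cdh6, a cadherin of kidney and neural crest, with 46.7 ± 15.3 CPM at day 10 and 20.4 ± 1.52 CPM at day 0 (log2 1.19). Its call ended with the length trend removed (-0.02), where the sign turned. Of 10 that passed the filter on low counts, 9 rose and 1 fell, with a median log2 change of 2.67. Over all genes tested 42.7% rose and 39.4% fell. Passing the filter can itself rest on the day with the higher level, and 7 were too low to be tested. Cdh13, a cadherin anchored to the membrane by a lipid, had 8.59 ± 0.87 CPM at day 10 and 0.52 ± 0.39 CPM at day 0 (log2 4.07, and 2.61 to 4.69 over 18 alternatives). Cdh10, a neural cadherin, had 10.5 ± 1.64 CPM at day 10 and 3.78 ± 0.71 CPM at day 0 (log2 1.48). Cdh8, another neural cadherin, had 174 counts over the day 10 libraries and 0 over those of day 0. Taking 3 counts summed over day 0 as the floor, it was at least 49.5-fold higher at day 10. Cdh9 fell, at 0.62 ± 0.18 CPM at day 10 and 1.25 ± 0.30 CPM at day 0 (log2 -0.98, adjusted p = 0.0185 by edgeR). This call ended under 5 of 17 alternatives, among them without day 10 library 1 (-0.88) and without day 0 library 2 (-0.84), and its log2 value ran from -1.28 to -0.15. Summed CPM of 7 neural markers was 160, 301, 151 and 143.8 in day 10 libraries and 102 to 117 at day 0, with 3 higher, 1 lower and 3 that did not pass. Library 2 was highest, and without it 3 were called lower. The part of neural cells in these cadherins was not tested.

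Catenins tie cadherins to actin. Among 15 catenins and junction adaptors, 8 rose, 6 fell and 1 did not pass, where 42.7% of all genes tested rose and 39.4% fell. The median log2 change of the 15 was 0.27. Ctnnb1, which encodes β-catenin, rose by 0.37, Ctnnd1, which encodes p120-catenin, rose by 0.43, and Ctnna1, which encodes αE-catenin, fell by 0.29. The call on Ctnnb1 ended with coding transcripts only (-0.01), where its sign turned, and that on Ctnna1 ended on TPM (-0.03). Ctnna3, αT-catenin of heart muscle, had 5.93 ± 1.11 CPM at day 10 and 0.16 ± 0.22 CPM at day 0 (log2 5.36, and 2.14 to 6.70 over the alternatives). Ctnna2, αN-catenin of neurons, had 8.57 ± 3.09 CPM at day 10 and 0.55 ± 0.38 CPM at day 0 (log2 4.01, and 2.29 to 4.53). Vcl, which encodes the actin linker vinculin, rose by 1.07 (0.79 to 1.96). Nectin1, an adhesion receptor of early junctions, fell by 1.19 (-2.08 to -0.73), and Pkp4, a plakophilin-related catenin, fell by 0.93 (-1.03 to -0.50). Afdn, which encodes the nectin-binding protein afadin, fell by 0.48, a call that ended on TPM, where its value turned and reached 0.07. On TPM 2 of the 15 were called lower, rather than 6.

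Of the transcription factors, Zeb2, Zeb1, Snai2 and Twist1 rose and Snai1 did not pass the test. The summed level of the 5 was 404 ± 42.9 TPM at day 10 and 28.5 ± 1.14 TPM at day 0. Snai1 encodes SNAIL, the zinc finger repressor of gastrulation, an unstable protein. It had 2.58, 3.21, 2.70 and 2.35 CPM in day 10 libraries, against 2.40, 1.88, 2.19 and 2.42 CPM in day 0 libraries. These ranges overlapped, and the log2 change was 0.29 ± 0.23 (adjusted p = 0.260 by edgeR). On TPM the groups did not overlap, at 3.26 to 4.71 TPM at day 10 and 2.10 to 2.59 TPM at day 0, and limma-trend on log2(TPM + 1) gave a rise of 0.52 (adjusted p = 0.00541). All genes tested had a median log2 change of 0.40 on that scale, so Snai1 was 0.12 above it. It also passed on counts with the length trend removed, at 0.72 (adjusted p = 0.0104 by edgeR), where the median of all genes was 0.09. The libraries held 166 Snai1 counts at day 10 and 116 at day 0.

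RefSeq windows before the transcription start were at hand for 3 of the 10 genes. That of Snai1 is shown because SNAIL is known in human cells to bind an E-box in its own promoter. The capitals mark CAGGTG, an E-box bound by SNAIL and ZEB proteins, or its reverse complement CACCTG, in the 250 bases before the start (chr2:167537945-167538194, plus strand, GRCm38.p6, from RefSeq).
Snai1: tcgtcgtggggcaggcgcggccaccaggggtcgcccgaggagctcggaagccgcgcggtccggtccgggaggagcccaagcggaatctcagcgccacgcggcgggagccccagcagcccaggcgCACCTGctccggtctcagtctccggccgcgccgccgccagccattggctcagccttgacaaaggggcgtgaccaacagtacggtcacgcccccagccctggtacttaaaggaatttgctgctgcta
The window held 1 match, whose first base is at position -126 from the start. Of 32851 RefSeq windows of this length, 17.2% held at least 1 match on either strand. The windows of Twist1 (1) and Zeb2 (4 starts) held none, nor any other CANNTG, the wider E-box that includes CAGGTG and that 66.2% of all windows held. A match describes these letters only.

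Snai2 encodes SLUG, the SNAIL-family repressor of neural crest and endocardial cushion mesenchyme. It had 40.3, 34.0, 38.6 and 41.3 CPM in day 10 libraries, against 0.369, 1.25, 0.505 and 0.524 CPM in day 0 libraries. Snai2 rose by 5.80 ± 0.22 (adjusted p = 1.16e-11 by edgeR), the most of the 5 factors. The 4 day 0 libraries held 36 counts together (95% exact Poisson interval 25.2 to 49.8), and library 2 stood above the others. Summed CPM of 6 neural crest markers was 182 to 217 at day 10 and 48.7 to 51.6 at day 0, of which 3 were too low to be tested. The other 3 moved apart, since Ets1 rose, Foxd3 fell and Erbb3 did not pass, and Ets1 made up most of the sum at day 10, with 157 to 206 CPM. The part of such cells in the level of Snai2 was not tested. The Snai2 to Snai1 ratio by TPM was 12.2, 8.28, 11.2 and 13.8 in day 10 libraries, against 0.121, 0.523, 0.181 and 0.170 in day 0 libraries. Snai2 was thus the more abundant transcript in 4 of 4 day 10 libraries and Snai1 in 4 of 4 day 0 libraries. The log2 ratio was 5.73 higher at day 10 (exact two-sided permutation test, p = 0.0286, adjusted 0.0286).

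Twist1 encodes a basic helix-loop-helix factor of mesoderm and cranial mesenchyme. It had 21.2, 20.1, 26.1 and 31.9 CPM in day 10 libraries, against 5.35, 4.53, 6.06 and 5.30 CPM in day 0 libraries. Twist1 rose by 2.23 ± 0.17 (adjusted p = 1.50e-08 by edgeR), the smallest rise among the factors that passed, and library 4 was the highest of day 10.

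Zeb1 and Zeb2 encode paired repressors with zinc fingers and a homeodomain-like region. Zeb1 had 247, 202, 186 and 213 CPM in day 10 libraries, against 20.7, 21.7, 26.2 and 20.6 CPM in day 0 libraries. It rose by 3.25 ± 0.10 (adjusted p = 4.03e-12 by edgeR). Zeb2 had 460, 325, 387 and 419 CPM in day 10 libraries, against 20.3, 17.1, 14.8 and 12.8 CPM in day 0 libraries. It rose by 4.62 ± 0.15 (adjusted p = 1.96e-10 by edgeR). The groups were far apart for both genes.

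The ratio of Zeb2 to Zeb1 by TPM was 1.08, 0.960, 1.27 and 1.09 in day 10 libraries, against 0.580, 0.632, 0.606 and 0.443 in day 0 libraries. Over all transcripts the paralogues were thus near parity at day 10, whereas Zeb1 led at day 0. With coding transcripts only Zeb2 led on both days, at 2.08 to 2.35 in day 10 libraries and 1.10 to 1.80 in day 0 libraries. On estimated counts the ratio was 1.61 to 2.08 in day 10 libraries and 0.566 to 0.978 in day 0 libraries. The log2 ratio was 0.96 higher at day 10 (exact two-sided permutation test, p = 0.0286, adjusted 0.0286).

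By mean TPM the factors at day 10 stood in the order Zeb2 (169 ± 20.4), Zeb1 (155 ± 23.5), Snai2 (42.5 ± 2.58), Twist1 (34.8 ± 7.04) and Snai1 (3.84 ± 0.62). Zeb2 and Zeb1 overlapped, as did Snai2 and Twist1. At day 0 they stood in the order Zeb1 (12.8 ± 0.87), Zeb2 (7.20 ± 0.85), Twist1 (5.60 ± 0.48), Snai1 (2.36 ± 0.23) and Snai2 (0.561 ± 0.363), where Zeb2 and Twist1 overlapped. Of the summed TPM of the 5 factors, Zeb2 held 41.6 ± 1.73% at day 10 and 25.2 ± 2.56% at day 0. Zeb1 held 38.2 ± 3.09% at day 10 and 44.9 ± 2.60% at day 0. These orders and shares sum all transcripts, and at day 0 coding transcripts held 29.9% of Zeb1 and 69.3% of Zeb2. Of the coding transcripts of Zeb1, Zeb1-201 had 2.94 TPM at day 0, Zeb1-202 had 0.889 TPM and Zeb1-205 had 0 TPM. The main coding transcripts of Zeb2 at day 0 were Zeb2-214 (1.44 TPM), Zeb2-201 (1.32), Zeb2-212 (0.769), Zeb2-228 (0.656), Zeb2-211 (0.648) and Zeb2-215 (0.223). By coding transcripts the day 0 means of Zeb1 and Zeb2 were thus both below that of Twist1, which has a single transcript. Summed CPM of the mesenchyme and epicardial markers given above was higher at day 10 too, and the part of such cells in the levels of these factors and of Cdh2 and Cdh11 was not tested.

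**Figure D3:**
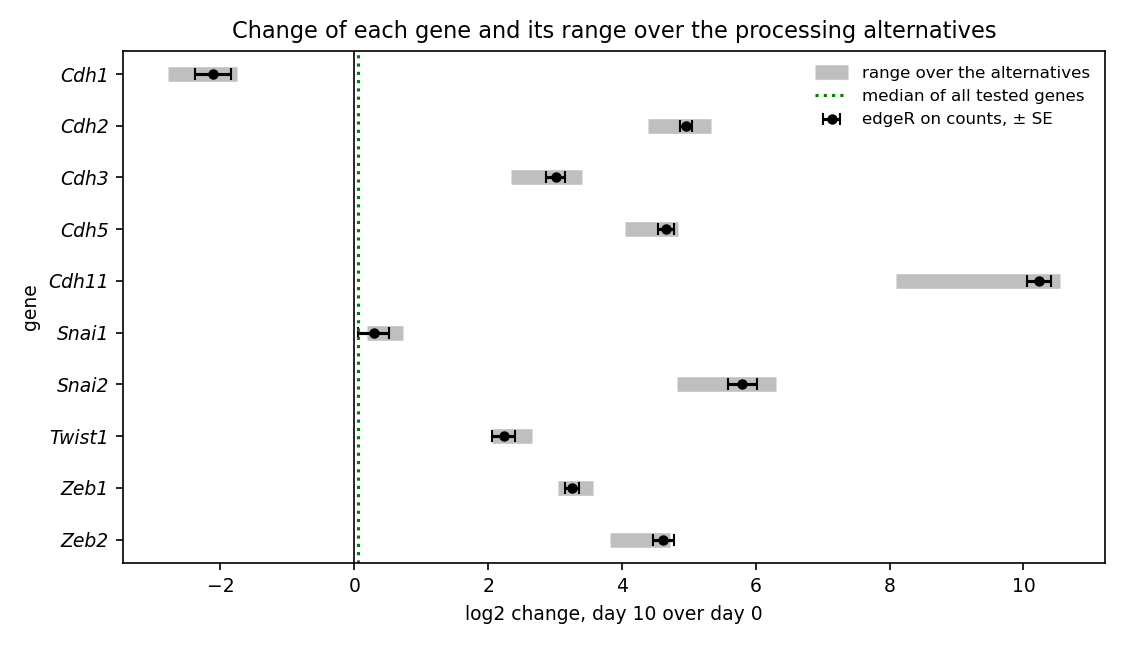
Log2 change of each gene, day 10 over day 0, from edgeR on counts with its SE (points and bars), over the range of 18 processing alternatives (grey), with the median of all tested genes at 0.06 (dotted). Cdh1 lies left of 0 throughout, from -2.78 to -1.76, and Snai1 lies nearest 0, from 0.19 to 0.72.

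The ZEB transcripts are known targets of the microRNA-200 family, small RNAs of epithelia whose genes ZEB1 and ZEB2 repress in turn. The mature sequences are shown, with the seed (bases 2 to 8) in capitals, because the seeds define which sites were counted. They come from RefSeq (GRCm38.p6). The first 2 share 1 seed and the last 3 share the other.
miR-141-3p: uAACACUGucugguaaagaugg
miR-200a-3p: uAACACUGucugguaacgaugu
miR-200b-3p: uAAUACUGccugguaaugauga
miR-200c-3p: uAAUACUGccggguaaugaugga
miR-429-3p: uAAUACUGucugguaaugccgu
These lie on the minus strands of chr6:124717917-124717938, chr4:156054911-156054932, chr4:156055685-156055706, chr6:124718324-124718346 and chr4:156053916-156053937, in that order. The levels of these RNAs were not analysed here. Matches to the seeds, CAGTGTT and CAGTATT, were counted in the 3′ UTRs that GENCODE M21 annotates, on the transcript strand. The longest UTR of Zeb1 (2401 nucleotides) held 9 and that of Zeb2 (4941 nucleotides) held 9. Snai2 had 2, Cdh11 and Snai1 had 1 each, and Cdh1, Cdh2, Cdh3, Cdh5 and Twist1 had 0. Of 2952 genes whose longest 3′ UTR was within 20% of the length of that of Zeb1, 44.7% had any match and 0% had as many. Of 1163 genes as near to Zeb2, 65.7% had any match and 0% had as many. For each seed the 2 Zeb2 sites nearest the stop codon are shown, with the match in capitals and the position in that UTR in the name (chromosome 2, minus strand, transcript sequence from GENCODE M21).
Zeb2 site 209: cattatgcaaaaattttgtaCAGTGTTaag
Zeb2 site 741: ctgcaagtgccatccttgtaCAGTGTTcag
Zeb2 site 393: gtgcccgcactaccatacatCAGTATTtta
Zeb2 site 458: gtgcccgcactacagtgcatCAGTATTacg
The matches are descriptions of the letters and say nothing of their use in these cells.

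The sites are not in every Zeb2 transcript. The longest, Zeb2-212 (9124 nucleotides), carries all 9 and had 45.6 ± 2.67 TPM at day 10 and 0.769 ± 0.189 TPM at day 0. Zeb2-214, with an annotated 3′ UTR of 172 nucleotides, carries 0 and had 31 ± 10.3 TPM at day 10 and 1.44 ± 0.64 TPM at day 0. Zeb2-212 is also the transcript with the most upstream start. It held 25.4, 28.8, 30.1 and 24.7% of Zeb2 TPM in day 10 libraries, against 11.2, 12.8, 8.82 and 9.60% in day 0 libraries, and the groups did not overlap. Starts 3887 to 4505 bases further down held 33.0 ± 2.63% at day 10 and 30.3 ± 14.0% at day 0, and those at 6221 to 7319 bases held 34.7 ± 2.80% at day 10 and 50.7 ± 9.98% at day 0. These shares were not tested. They rest on kallisto's division of reads between 29 overlapping transcripts, and 40.5% of the 31-base words of Zeb2-212 occur in no other Zeb2 transcript, against 1.10% of those of Zeb2-214.

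**Figure D4:**
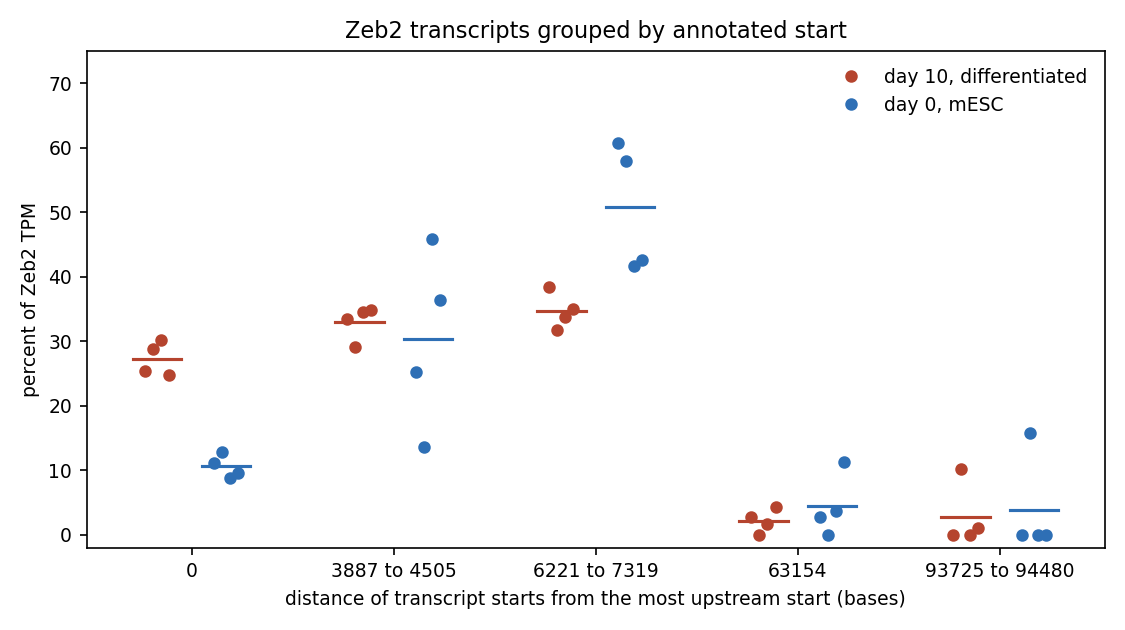
Percent of Zeb2 TPM in each library for transcripts grouped by the distance of their annotated start from the most upstream one, with day 10 (red) left of day 0 (blue) and a bar at the mean. The most upstream start held 24.7 to 30.1% at day 10 and 8.82 to 12.8% at day 0.

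The sequence before the most upstream Zeb2 start in RefSeq is shown because the share of the most upstream GENCODE M21 start was higher in all day 10 libraries (250 bases, chr2:45117443-45117692, minus strand, GRCm38.p6). Whether both annotations place that start at the same base was not checked. The sequence has no capitals since neither E-box was found.
Zeb2 upstream start: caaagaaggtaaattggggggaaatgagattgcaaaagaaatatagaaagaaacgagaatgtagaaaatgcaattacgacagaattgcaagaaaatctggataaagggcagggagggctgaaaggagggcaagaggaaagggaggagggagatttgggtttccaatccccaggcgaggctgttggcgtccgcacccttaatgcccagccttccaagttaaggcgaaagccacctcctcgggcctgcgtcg
Its GC content was 49.6%, against 70.0% for the Snai1 window.

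The sums of other genes also held several transcripts. For Cdh2, the shorter coding transcript Cdh2-202 had 170 ± 9.39 TPM at day 10 and 4.68 ± 0.49 TPM at day 0, and the longer Cdh2-201 had 54.9 ± 2.67 TPM at day 10 and 0.803 ± 0.321 TPM at day 0. Coding transcripts held 94.8 ± 0.97% of Cdh2 at day 10 and 94.6 ± 2.03% at day 0. For Cdh11 the coding transcript held 61.4 ± 5.71% at day 10, and the rest lay in 2 retained-intron models, of which Cdh11-203, of 599 nucleotides, had 106 ± 38.0 TPM. Coding transcripts held 35.2 ± 3.70% of Zeb1 at day 10 and 29.9 ± 12% at day 0, and the processed transcript Zeb1-210 had 54.3 ± 10.7 TPM at day 10 and 4.32 ± 0.58 TPM at day 0. With coding transcripts only, the log2 changes were 5.02 for Cdh2, 10.55 for Cdh11, 3.42 for Zeb1 and 4.66 for Zeb2. Cdh3, Snai1, Snai2 and Twist1 had a single transcript each. An antisense gene, Zeb2os, overlaps Zeb2 and had 40, 46, 41 and 68 counts in day 10 libraries and 3, 1, 1 and 0 in day 0 libraries. Gm10125, opposite Zeb1, had 8 to 18 counts at day 10 and 1 to 2 at day 0. No source says whether strand was used in counting, so reads of such pairs cannot be told apart.

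In a list of 27 other EMT transcription factors, 23 could be tested. There 19 rose and 3 fell, 1 did not pass, and the median log2 change was 3.69. Over all genes tested 42.7% rose and 39.4% fell. Passing the filter on low counts can itself rest on the day with the higher level. Sox9, a factor of cushion and cartilage mesenchyme, had 71.4 ± 6.71 CPM at day 10 and 0.54 ± 0.18 CPM at day 0 (log2 7.04). Id2, an inhibitor of helix-loop-helix factors, had 96.0 ± 5.66 CPM at day 10 and 14.8 ± 1.91 CPM at day 0 (log2 2.69). Hand2, a heart mesoderm factor, had 5419 counts at day 10 and 1 at day 0, 4628 times as many per unit of depth (95% counting interval 830.2 to 182811). Tcf15, a factor of somites, fell to 0.76 ± 0.13 CPM at day 10, against 60.1 ± 10.4 CPM at day 0 (log2 -6.28). Klf8, known in human cells as a repressor of CDH1, fell by 1.33 (-2.01 to -0.87 over the alternatives).

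SNAIL and ZEB proteins act through corepressors and are controlled by kinases and ubiquitin ligases. Among 24 such genes 10 rose, 10 fell and 4 did not pass, near the 42.7% of all genes tested that rose and 39.4% that fell. The median log2 change of the 24 was -0.04. On TPM 14 rose and 6 fell, with a median of 0.40, as for all genes on that scale. Ctbp2, a corepressor bound by ZEB proteins, fell to 48.1 ± 3.55 CPM at day 10, against 184 ± 8.39 CPM at day 0 (log2 -1.94, and -1.98 to -1.27 over the alternatives). Hdac1, a histone deacetylase recruited by SNAIL, fell by 1.24 (-1.29 to -0.76), and Ezh2, the Polycomb methyltransferase, fell by 1.48 (-1.82 to -0.77). Gsk3b, a kinase that marks SNAIL for degradation, rose by 1.62 (0.68 to 1.95). Lats2, a kinase that stabilises SNAIL, rose by 2.69, and Ctdsp2, a small phosphatase, rose by 1.55.

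Epithelial genes moved in both directions. Of 41 tested, 18 fell, 11 rose and 12 did not pass, where 39.4% of all genes tested fell and 42.7% rose. The part that fell was thus near that over all genes. The median log2 change of the 41 was -0.36. On TPM 13 fell and 16 rose, with a median of 0.03, which is -0.36 relative to all genes on that scale. Epcam fell by 2.25 ± 0.15, and Llgl2, a polarity protein, fell by 1.48. Dsp, which encodes desmoplakin of the desmosomes of epithelia and heart muscle, had 333 ± 32.6 CPM at day 10 and 47.8 ± 4.74 CPM at day 0 (log2 2.80, and 1.62 to 3.08 over the alternatives). Dsc2, a desmosomal cadherin of the same tissues, had 221 ± 42.3 CPM at day 10 and 7.13 ± 0.42 CPM at day 0 (log2 4.95). Krt7, a keratin of simple epithelia, had 17.8 ± 1.32 CPM at day 10 and 0.85 ± 0.45 CPM at day 0 (log2 4.38). The part of heart muscle cells, whose marker sums are given above, in the desmosomal genes was not tested.

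Among 29 mesenchymal genes 27 rose and 1 fell, 1 did not pass, and the median log2 change was 4.46. Over all genes tested 42.7% rose and 39.4% fell. Of the 29, 25 rose by over 2-fold, as did 24.1% of all genes tested. Lox, the collagen cross-linking oxidase, had 125 ± 21.9 CPM at day 10 and 0.55 ± 0.07 CPM at day 0 (log2 7.79). Itgb3, the β3 integrin, had 79.5 ± 6.28 CPM at day 10 and 1.88 ± 0.50 CPM at day 0 (log2 5.40). Pdgfrb, a receptor of mural cells and fibroblasts, had 95.5 ± 11.9 CPM at day 10 and 4.3 ± 0.68 CPM at day 0 (log2 4.46). Ccn2, a matricellular protein, fell, at 62.7 ± 12.5 CPM at day 10 and 92.6 ± 12.2 CPM at day 0 (log2 -0.56), a call that ended on TPM (-0.15).

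**Figure D5:**
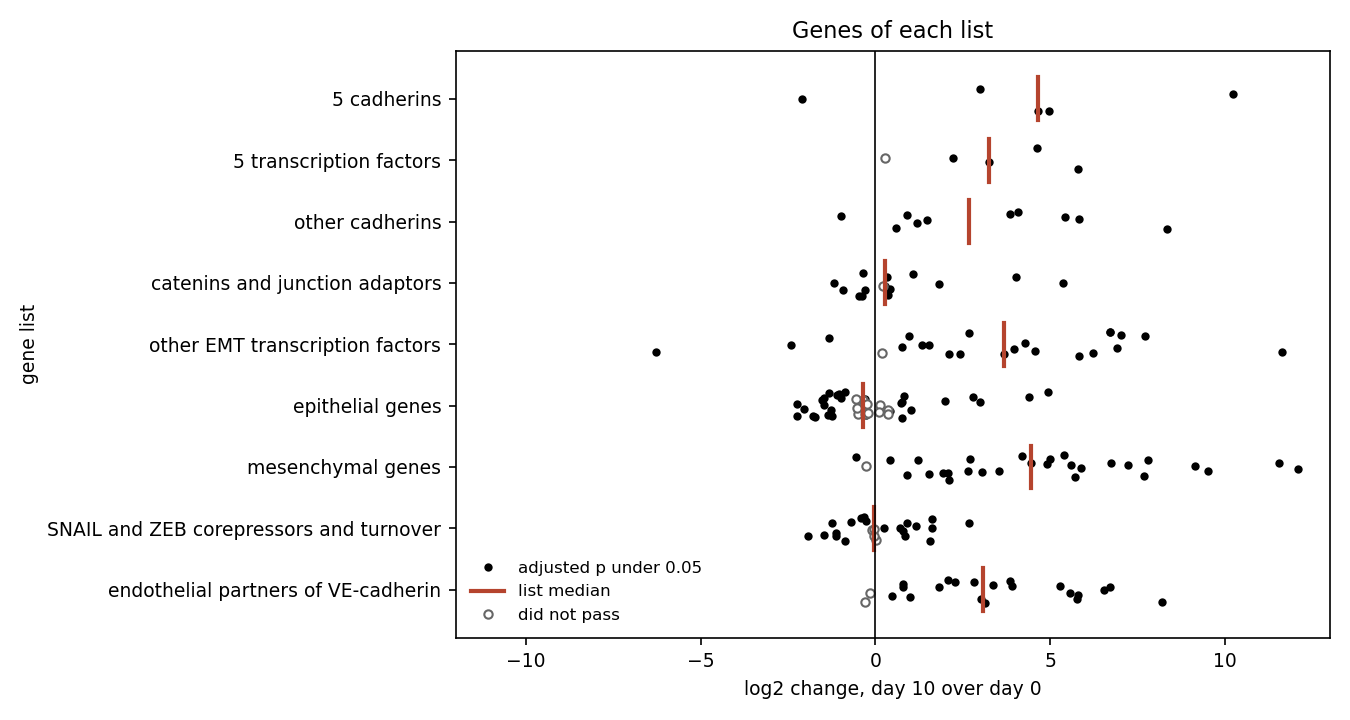
Log2 change of every tested gene of each list, day 10 over day 0, with genes that passed the test filled and list medians as red bars. Medians run from -0.36 for epithelial genes to 4.65 for the 5 cadherins, and fitted values of genes with 0 to 3 counts on a day depend on the prior count.

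The genes with the pattern most like each of the 10 were found among 14111 tested protein-coding genes by the root mean square difference of centred log2 CPM over 8 libraries. For Cdh1 these were Map7, Abcc4 and Nrg2, at differences of 0.0953, 0.115 and 0.137. For Cdh2 they were Antxr2, Thbs1 and St8sia4, for Cdh3 Tns1, Zcchc24 and Smarca2, and for Cdh5 Zfp366, Nr4a2 and Igfbp4. Cdh11 was most like Unc5c (0.123), Col6a3 and Asb4. Of the factors, Zeb1 was most like Tgfbr2 (0.101), Parva and Nr1h4, Zeb2 most like Angptl2 (0.110), Megf6 and Npr3, and Snai2 most like Tmem176a (0.154), Emcn and Chst2. Twist1 was most like Gm10409, Gm3020 and Shisa2, of which the Gm genes had equal mean values and may share reads. Snai1 was most like Decr2, Slc12a9 and Nudt3. Zfp366 and Nr1h4 had 0 CPM at day 0, where a prior count of 2 sets their log2 value. Emcn (0.017 CPM) and Col6a3 (0.072 CPM) were near 0 at day 0. Unc5c (0.279 CPM), Asb4 (0.315 CPM), Tmem176a (0.480 CPM), Nr4a2 (0.640 CPM) and St8sia4 (0.874 CPM) were low there too. So were Cdh11 (0.518 CPM) and Snai2 (0.663 CPM) themselves, and the prior count weighs on all these likenesses. The fitted log2 change of Emcn was 8.21, against 5.80 for Snai2.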

How the data were processed

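For each library the authors deposited a table of 126126 transcripts with, per the file headers, length, effective length, estimated count and TPM. The submitters' processing notes name kallisto (version given as 1) and DESeq2. The sources used here do not give build or annotation. The authors' estimated counts carry no scaling, and 40.3 to 46.3% of values were not whole (tolerance 1e-06) because kallisto divides reads among transcripts. The authors' TPM values take effective length into account.

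Identifiers, with versions removed, were looked up in GENCODE M21, where 117992 (93.6%) were found. The remaining 8134, with 1.15 to 1.23% of counts per library, were not used. Counts were summed over 32780 genes and rounded. In R 4.3.3, edgeR 4.0.16 (filterByExpr, TMM, robust quasi-likelihood fit) tested 15097 genes, with p-values adjusted over all of them, a threshold of 0.05, and glmTreat for changes over 2-fold. CPM values are scaled by TMM. SE comes from the log2 change and its F statistic. Libraries of day 10 correlated across genes at r of at least 0.979 with each other, those of day 0 at 0.987 or more, and libraries of different days at 0.735 or less. Ratios within a library were tested by exact permutation in Python 3.11.15 with scipy 1.17.1. Alternatives used limma 3.58.1 on log2 values computed from the deposited TPM, DESeq2 1.42.0, other scalings, filters, length offsets, coding transcripts only, a replicate block and each library left out.

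The genes and lists were chosen with earlier results of these data known. All 10 genes are named, and from each list up to 3 called genes in each direction with the smallest p, while Grhl2, Cdh6, Egfl7, Sox17, Ctnnb1, Ctnnd1 and Ctnna1 were named after their values were seen. A few genes that this rule picks are not reported here. RefSeq sequences carry its build, GRCm38.p6. Without molecular identifiers, reads may be copies of one molecule, and intervals and floors describe counting error alone.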

Additional observations from a re-analysis of the deposited data

Results flagged for a closer look

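In 40 groups of 4 libraries (10 genes, 2 days, CPM and TPM), 2 had a single library apart from the rest by Dixon's test, and chance flags about 1 in 20 groups. Cdh5 was at 29.5 TPM in day 10 library 3, against 34.2 to 34.6 TPM in the other day 10 libraries. Snai2 was at 1.10 TPM in day 0 library 2, against 0.313 to 0.425 TPM in the other day 0 libraries, which corresponds to 18.2 estimated counts against 4.01 to 8.07. On CPM neither gene passed Dixon's test. Without single libraries the log2 change of Cdh5 was 4.56 to 4.72 and that of Snai2 5.62 to 6.31.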

How the results depend on the processing

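Over 18 alternatives for each of the 10 genes (180 fits), all directions held and 177 fits gave an equal call. Snai1 passed the test in the other 3, at a log2 change of 0.52 with limma-trend on log2(TPM + 1), 0.67 on log2(TPM + 0.1), and 0.72 with the length trend removed, with adjusted p over all its alternatives of 0.00541 to 0.497. The median of all genes was 0.40 and 0.45 on those TPM scales, against 0.06 on counts. Of genes called, 65.8% were higher on log2(TPM + 1), against 52.0% on counts, and of those over 2-fold 74.5% against 58.2%. Counts of all called genes ran from 11101 to 14388, and over 2-fold from 4353 to 7613. With any 1 library left out the 3 ratios cannot pass, since 3 against 4 libraries allow no exact permutation p below 0.0571. Their log2 differences then ran from 6.91 to 7.35 for Cdh2 to Cdh1, 0.852 to 1.03 for Zeb2 to Zeb1 and 5.47 to 6.17 for Snai2 to Snai1. The Zeb2 to Zeb1 difference was 1.38 on counts and 0.682 with coding transcripts only. Same-numbered libraries of the 2 days correlated in their deviations at r = 0.030 to 0.049, each highest with its own number, a hint from the data only. With the replicate block 12298 genes were called and 6231 over 2-fold, the 10 genes kept their calls, and the ratios, at 7.14, 0.96 and 5.73, reached an exact sign-flip permutation p of 0.125, the smallest that 4 pairs allow. Depth limits Cdh11 and Snai2 at day 0, with 28 and 36 counts in all.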
